A study of Mus musculus with 12 samples.

Results

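Lipid-associated macrophages are phagocytes that take up and store lipid in fatty liver, adipose tissue and arterial plaques, and they are recognised by a shared set of transcripts. The receptor TREM2 on their surface senses lipids and lipoproteins and signals through the adaptor TYROBP, and genes of lysosomes and lipid handling accompany it. They are generally distinguished from the resident Kupffer cells of the liver sinusoids, which carry markers such as Clec4f and Timd4. Of 9 genes named as markers of these cells (Trem2, Gpnmb, Cd9, Spp1, Lgals3, Itgax, Mmp12, Pla2g7 and Fabp5), 8 had at least 1 probe set annotated with a single gene symbol, and these 8 of 22180 measured genes are described here. A gene with several such probe sets was read from the brightest of them on average. Spp1 is not analysed here.

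Whole livers of male mice were measured on single-colour expression arrays, and the values are log2 expression as deposited, so that a difference of 1 is a 2-fold change. The 12 arrays fall into 4 groups of 3 numbered biological replicates: Lats2-CKO mice on a high-cholesterol (Paigen) diet (HCD, 1.25% cholesterol), wild-type (WT) mice on HCD, Lats2-CKO mice on a normal chow without cholesterol (ND), and WT mice on ND. All mice were 8 weeks old at the start and stayed on their diet for 9 weeks. The labels name the mutant line both Lats2-CKO and Lats2-KO, and they state neither which cells lost the gene nor by which Cre. The design asks what the diet did in each genotype, what the loss of the Hippo pathway kinase LATS2 did on each diet, and whether the diet response differed between genotypes.

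Some facts of the whole series bear on every value below. Lats2 read 4.37 to 4.99 on the 6 Lats2-CKO arrays and 5.12 to 5.97 on the 6 WT arrays, without overlap. The 11 measured hepatocyte markers averaged 12.15 to 12.31 on the arrays, so the tissue was liver as labelled. WT ND array 3 stood apart from its group: its mean correlation over genes was 0.987 with the WT HCD arrays and 0.981 with the other WT ND arrays, so values that rest on it are also given without it. WT HCD array 1 did not stand apart in this way. Its mean correlation was 0.9825 with its own group and 0.9787 with the WT ND arrays, although its nearest array was WT ND array 3 (0.986). It held the highest value of 6 of the 8 markers (9.61% of all genes), so values that rest on it are also given without it. By their median value the arrays also fell into 2 sets, with medians of 3.48 to 3.49 and of 3.42 to 3.43, and within each set a diet comparison in 1 genotype has a single array on 1 side.

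In whole liver, 7 of the 8 markers averaged higher on HCD than on ND in both genotypes, where 46.4% of all genes did in Lats2-CKO and 44.8% in WT, and the fatty acid binding protein gene Fabp5 averaged lower. The phospholipase gene Pla2g7 alone rose past the threshold, and that over both genotypes together, at 1.38 ± 0.21 on the log2 scale (SE, 6 HCD against 6 ND arrays). There 1.24% of all genes passed, and the Pla2g7 call was lost with the array sets as a block and without some single arrays. In Lats2-CKO livers, Gpnmb, Cd9, Lgals3, Itgax, Mmp12 and Pla2g7 were each higher on HCD without overlap (8.98% of all genes). In WT livers only Pla2g7 and Lgals3 were (4.97% of all genes). The WT diet differences of Trem2, Mmp12 and Itgax rested mainly on 1 HCD liver, WT HCD array 1. That of Gpnmb moved with this array and with WT ND array 3, and was 1.74 ± 0.75 without both. The test of whether the diet response differed between the genotypes called 0 of the 8 markers. These are bulk tissue values, so that more cells of a type and more RNA per cell cannot be told apart.

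**Figure D1:**
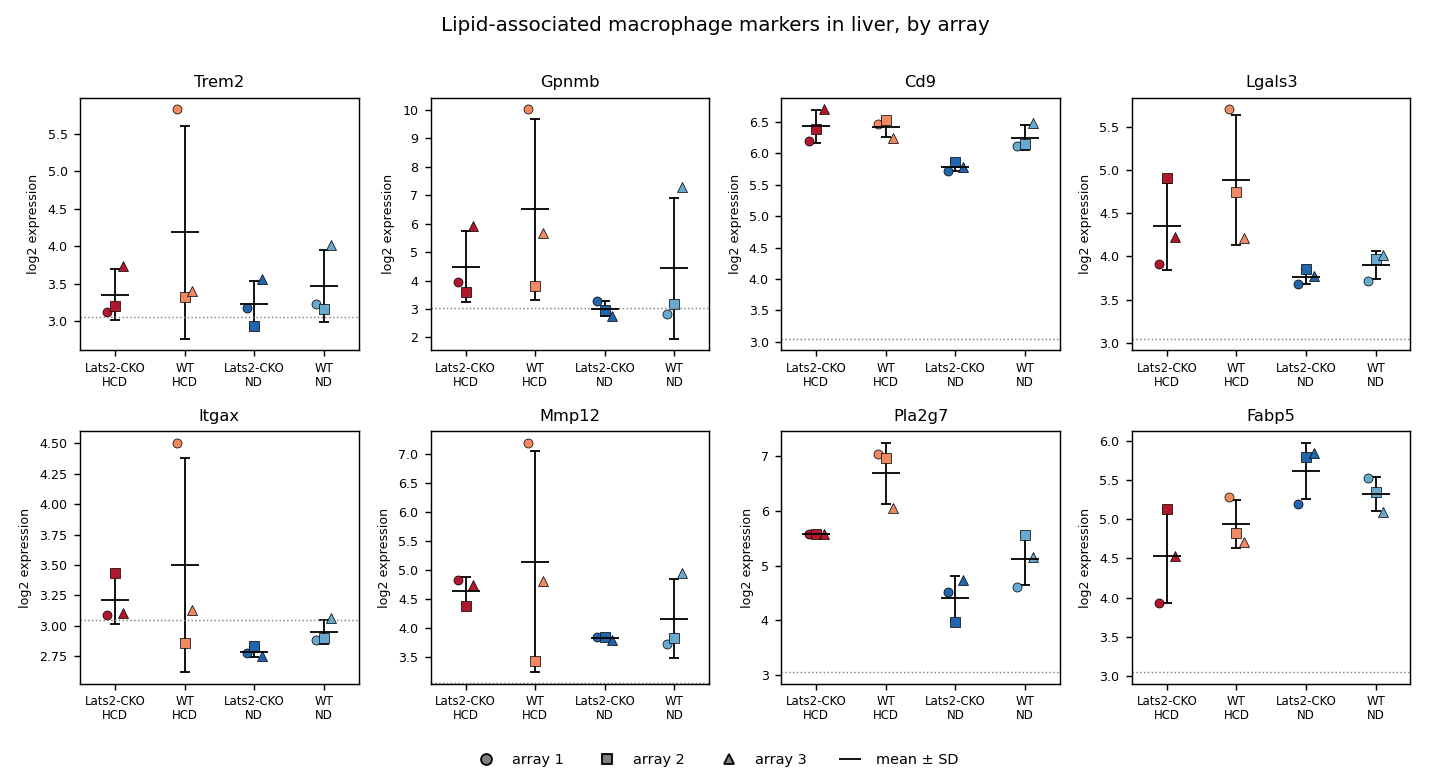
Log2 expression (vertical axis) of the 8 markers on each of 12 arrays, by genotype and diet (horizontal axis), where points are arrays, bars are group mean ± SD (n = 3) and the dotted line is the 30th percentile of all values (3.05). The first WT HCD array lies above all other arrays in the panels of Trem2, Gpnmb, Lgals3, Itgax, Mmp12 and Pla2g7.

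Among the surface proteins, Gpnmb, a transmembrane glycoprotein gene that is switched on in lipid-laden and lysosome-stressed macrophages, had the widest range. It read 3.95, 3.58 and 5.93 on the Lats2-CKO HCD arrays, against 3.29, 2.96 and 2.76 on the Lats2-CKO ND arrays. On the WT HCD arrays it read 10.02, 3.81 and 5.67, against 2.83, 3.17 and 7.28 on the WT ND arrays. The Lats2-CKO groups did not overlap, while WT ND array 3 exceeded 2 of the 3 WT HCD arrays. The remaining 5 ND arrays lay between 2.76 and 3.29, around the 30th percentile of all values, 3.05, below which a probe set is called dim here. The HCD minus ND difference was 1.49 ± 1.48 in Lats2-CKO and 2.07 ± 1.48 in WT (SE, limma adjusted p = 0.730 and 0.665), so its size was within the spread between livers. Leaving out 1 array at a time gave 0.77 to 1.94 in Lats2-CKO, the lowest without Lats2-CKO HCD array 3. The difference was 3.499 ± 1.402 in WT without WT ND array 3 and 0.31 ± 1.20 without WT HCD array 1 (limma adjusted p = 0.237 and 0.954). Without both arrays it was 1.74 ± 0.75 in WT (limma adjusted p = 0.276).

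Trem2, the lipid-sensing receptor that names this macrophage state, was high in 1 liver only. It read 3.12, 3.20 and 3.74 on the Lats2-CKO HCD arrays, against 3.17, 2.94 and 3.55 on the Lats2-CKO ND arrays. The WT HCD arrays gave 5.82, 3.32 and 3.41, against 3.22, 3.16 and 4.02 on the WT ND arrays. Apart from WT HCD array 1, every value lay between 2.94 and 4.02, and both pairs of groups overlapped. The diet difference was 0.13 ± 0.55 in Lats2-CKO and 0.72 ± 0.55 in WT (SE, limma adjusted p = 0.948 and 0.690). Without WT HCD array 1 the WT difference changed sign, to -0.10 ± 0.28, and without Lats2-CKO HCD array 3 the Lats2-CKO difference did, to -0.062.

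Itgax, which encodes the integrin CD11c of dendritic cells and of some macrophages, was dim on 6 of 12 arrays. It read 3.09 to 3.44 on the Lats2-CKO HCD arrays, against 2.75 to 2.83 on the Lats2-CKO ND arrays, which do not overlap. In WT it read 4.50, 2.86 and 3.13 on HCD, against 2.88, 2.90 and 3.06 on ND. The difference was 0.42 ± 0.32 in Lats2-CKO and 0.55 ± 0.32 in WT (SE, limma adjusted p = 0.629 and 0.585), and the WT value was 0.05 ± 0.13 without WT HCD array 1.

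Cd9, a tetraspanin gene expressed by many cell types besides these macrophages, varied least. It read 6.19, 6.39 and 6.70 on the Lats2-CKO HCD arrays, against 5.72, 5.87 and 5.78 on the Lats2-CKO ND arrays. In WT it read 6.46, 6.53 and 6.25 on HCD, against 6.12, 6.15 and 6.48 on ND. The diet groups were apart in Lats2-CKO and overlapped in WT through WT ND array 3. The difference was 0.64 ± 0.14 in Lats2-CKO and 0.17 ± 0.14 in WT (SE, limma adjusted p = 0.0878 and 0.737), and neither passed. The WT difference was 0.28 ± 0.15 without WT ND array 3. Without that array, which enters the Lats2-CKO contrast only through the shared estimate of spread, the Lats2-CKO difference was past the threshold at limma adjusted p = 0.0412. The second Cd9 probe set gave -0.03 ± 0.11 in Lats2-CKO and 0.07 ± 0.11 in WT, so the probe sets disagree.

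Of the secreted products, Mmp12, the macrophage metalloelastase gene, followed Gpnmb across the arrays. It read 4.82, 4.38 and 4.74 on the Lats2-CKO HCD arrays, against 3.84, 3.85 and 3.80 on the Lats2-CKO ND arrays. The WT HCD arrays gave 7.20, 3.42 and 4.82, against 3.72, 3.82 and 4.95 on the WT ND arrays. WT HCD array 1 was the highest of all 12 arrays and WT HCD array 2 the lowest, whereas the Lats2-CKO groups did not overlap. The difference was 0.82 ± 0.72 in Lats2-CKO and 0.98 ± 0.72 in WT (SE, limma adjusted p = 0.682 and 0.671), or -0.04 ± 0.42 in WT without WT HCD array 1. When only the Lats2-CKO arrays were fitted, so that the WT spread was left out, Mmp12 passed in that genotype (limma adjusted p = 0.0451).

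Pla2g7, the gene of a secreted phospholipase that is carried on lipoproteins and hydrolyses oxidised phospholipids, separated the diets most evenly. It read 5.58, 5.59 and 5.58 on the Lats2-CKO HCD arrays, against 4.52, 3.96 and 4.73 on the Lats2-CKO ND arrays. It read 7.05, 6.98 and 6.05 on the WT HCD arrays, against 4.61, 5.57 and 5.16 on the WT ND arrays. Every HCD array lay above every ND array, as for 0.379% of all genes, while 0.974% were lower without overlap. Over both genotypes the change was 1.38 ± 0.21 or 2.60-fold (limma adjusted p = 0.0248), higher on 6 of 6 HCD arrays. Within Lats2-CKO the difference was 1.18 ± 0.30 and within WT 1.58 ± 0.30 (limma adjusted p = 0.114 and 0.307), and neither passed over all genes. The WT difference passed without WT ND array 3 (1.60, limma adjusted p = 0.0460) and without WT HCD array 3 (1.898, limma adjusted p = 0.0261), and the Lats2-CKO difference when only that genotype was fitted (limma adjusted p = 0.0451). The call over both genotypes was lost with the array sets as a block (1.375 ± 0.24, limma adjusted p = 0.0583) and on leaving out any of WT ND arrays 1 and 2, Lats2-CKO ND array 3, WT HCD array 2 and Lats2-CKO HCD arrays 1 and 3, at limma adjusted p of 0.055 to 0.0672. The change itself stayed between 1.25 and 1.54 over all alternatives, and it was 1.65 within the higher and 1.10 within the lower array set.

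Lgals3, which encodes the galactoside-binding lectin galectin-3 of activated macrophages, also had non-overlapping diet groups in each genotype. It read 3.92, 4.91 and 4.22 on the Lats2-CKO HCD arrays, against 3.68, 3.85 and 3.77 on the Lats2-CKO ND arrays. It read 5.70, 4.74 and 4.22 on the WT HCD arrays, against 3.72, 3.97 and 4.02 on the WT ND arrays. The difference was 0.58 ± 0.33 in Lats2-CKO, 0.99 ± 0.33 in WT and 0.78 ± 0.23 over both genotypes (SE, limma adjusted p = 0.493, 0.355 and 0.117). It was 0.58 ± 0.26 in WT without WT HCD array 1, and 0.30 in Lats2-CKO without Lats2-CKO HCD array 2, and none of these passed.

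Fabp5, an intracellular fatty acid binding protein gene, ran the other way. It read 3.93, 5.14 and 4.53 on the Lats2-CKO HCD arrays, against 5.20, 5.80 and 5.84 on the Lats2-CKO ND arrays. It read 5.28, 4.82 and 4.71 on the WT HCD arrays, against 5.53, 5.35 and 5.09 on the WT ND arrays. The Lats2-CKO groups did not overlap and the WT groups did. The difference was -1.08 ± 0.29 in Lats2-CKO, -0.39 ± 0.29 in WT and -0.73 ± 0.20 over both genotypes (SE, limma adjusted p = 0.129, 0.679 and 0.100). All 4 Fabp5 probe sets had differences below 0 in both genotypes, from -1.13 to -0.03 in Lats2-CKO and from -0.43 to -0.13 in WT. They are not 4 separate readings. The one with the smallest differences was dim on every array, at 2.44 to 3.02. Another ran nearly alongside the one used, with means of 4.95 and 5.10. Whether the probe sets separate Fabp5 from near-identical copies is not known from the files, so its value is uncertain.

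**Figure D2:**
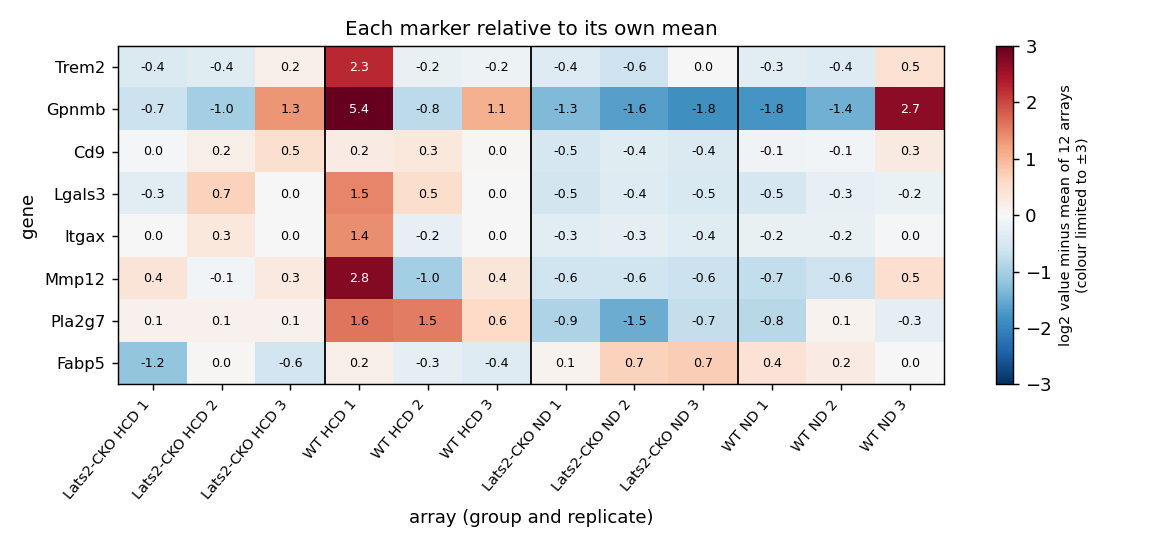
Log2 value of each marker (rows) minus its own mean over the 12 arrays (columns, 3 per group), with the colour limited to ±3. WT HCD array 1 is the highest in 6 of the 8 rows, though for Pla2g7 barely above WT HCD array 2 (7.05 and 6.98), and Gpnmb is also high on WT ND array 3. Fabp5 averages lower on HCD, unlike the rest, but on WT HCD array 1 it lies above its own mean (5.28 against 5.10).

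Set side by side, the markers marked out single livers more than diet groups. The highest value of the 12 arrays was on WT HCD array 1 for 6 of the 8 markers (Trem2, Gpnmb, Lgals3, Itgax, Mmp12 and Pla2g7), where 9.61% of all genes had theirs on that array. WT HCD arrays 2 and 3 and WT ND array 3 had the highest value for 0 of the 8, and 8.43%, 4.64% and 6.62% of all genes had theirs there. The mean of the other WT HCD arrays was 38.96-fold lower for Gpnmb, 8.45-fold for Mmp12, 5.495-fold for Trem2 and 2.33-fold for Lgals3. For Itgax the mean of the others was itself dim, so its 2.84-fold is no exact measure. For Pla2g7 and Fabp5 this array lay 1.45-fold and 1.43-fold above the mean of the others, and for Cd9 1.05-fold. WT ND array 3 was second highest for 3 of the 8 markers, Trem2, Gpnmb and Mmp12, against 7.58% of all genes. The mean of the 8 centred markers was -0.26, -0.01 and 0.23 on the Lats2-CKO HCD arrays, 1.92, -0.03 and 0.19 on the WT HCD arrays, -0.57, -0.58 and -0.46 on the Lats2-CKO ND arrays and -0.51, -0.33 and 0.42 on the WT ND arrays.

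The count of markers whose diet groups did not overlap was larger in Lats2-CKO than in WT. In Lats2-CKO 6 of the 8 (Gpnmb, Cd9, Lgals3, Itgax, Mmp12 and Pla2g7) were higher on HCD without overlap, where 8.98% of all genes were, and Fabp5 was lower without overlap (10.5% of all genes). In WT 2 of the 8, Lgals3 and Pla2g7, were higher without overlap, where 4.97% of all genes were, and 0 were lower without overlap (8.81% of all genes). Without WT ND array 3 these were 5 of the 8, adding Trem2, Gpnmb and Cd9, against 14.7% of all genes, and without WT HCD array 1 they were again Lgals3 and Pla2g7 (10% of all genes). Fabp5 was then lower without overlap in both cases, as were 21.6% and 17.8% of all genes. The smaller groups overlap less often for any gene, so these counts are read against their own share.

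By limma, 0 of the 8 markers passed for diet in Lats2-CKO and 0 of the 8 in WT, where 0.271% and 0% of all genes passed. At an unadjusted p below 0.05, 3 of the 8 did in Lats2-CKO (13.4% of all genes) and 2 of the 8 in WT (10.6% of all genes). Over both genotypes 1 of the 8 passed, where 1.24% of all genes did, and 4 of the 8 had an unadjusted p below 0.05 (18% of all genes). The median difference of the 8 was 0.61 in Lats2-CKO, 0.85 in WT and 0.64 over both genotypes, and that of all genes -0.02 in each. Without WT HCD array 1 the median was 0.09 in WT and 0.39 over both genotypes, each more than 1.5 times smaller. Within the higher and the lower array set it was 0.34 and 0.76 in Lats2-CKO, and 1.91 and -0.21 in WT, where each set has a single array on 1 side of the comparison.

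**Figure D3:**
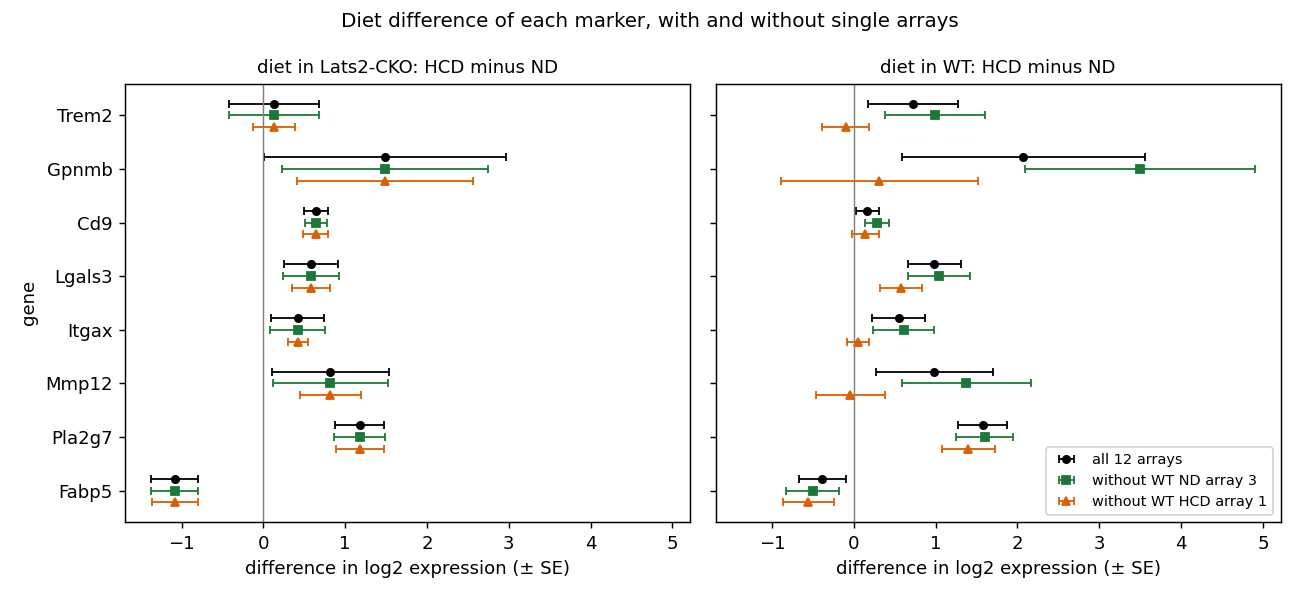
HCD minus ND difference in log2 expression (horizontal axis, ± SE from limma) of each marker in Lats2-CKO (left) and WT (right) mice, with all 12 arrays, without WT ND array 3 and without WT HCD array 1. In WT, Trem2, Itgax and Mmp12 come to lie near 0 without WT HCD array 1, and Pla2g7 is at 1.40 to 1.60.

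The promoter sequences of the markers were also searched for shared letters. The RefSeq windows of GRCm38.p6 reach from 250 bases before to 50 after an annotated start site, and 7 of the 8 markers had 1, or for Mmp12 2, such windows. Letters of a few motifs were searched on both strands: TGANTCA of AP-1, GAGGAA of PU.1 and other ETS factors, and TCACGTG and TCATGTG of the MITF and TFEB family. The AP-1 letters stood in 4 of the 8 windows of these 7 genes, the 4 shown here, where 7.81% of all 32851 windows hold them. The ETS letters stood in 2 of the 8 windows (28.3% of all windows), TCATGTG in 1 (3.77%) and TCACGTG in 0 (3.77%). Such a match describes the letters of the window and is no evidence of binding. Matches are in capitals in the sequences, which show how near they lie to the start site.
Gpnmb promoter, chr6:49036268-49036567 (+): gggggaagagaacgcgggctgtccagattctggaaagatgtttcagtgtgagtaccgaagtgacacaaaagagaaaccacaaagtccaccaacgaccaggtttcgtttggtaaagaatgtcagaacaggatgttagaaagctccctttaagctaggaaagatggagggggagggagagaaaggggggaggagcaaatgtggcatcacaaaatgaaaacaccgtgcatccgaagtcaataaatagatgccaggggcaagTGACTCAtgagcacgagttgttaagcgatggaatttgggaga
Itgax promoter, chr7:128129300-128129599 (+): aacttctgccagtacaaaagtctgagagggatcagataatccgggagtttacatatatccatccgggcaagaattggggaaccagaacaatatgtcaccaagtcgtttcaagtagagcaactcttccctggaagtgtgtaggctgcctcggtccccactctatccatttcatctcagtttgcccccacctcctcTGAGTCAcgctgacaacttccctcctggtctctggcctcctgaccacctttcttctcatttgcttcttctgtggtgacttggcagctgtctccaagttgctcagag
Mmp12 promoter, chr9:7347124-7347423 (+): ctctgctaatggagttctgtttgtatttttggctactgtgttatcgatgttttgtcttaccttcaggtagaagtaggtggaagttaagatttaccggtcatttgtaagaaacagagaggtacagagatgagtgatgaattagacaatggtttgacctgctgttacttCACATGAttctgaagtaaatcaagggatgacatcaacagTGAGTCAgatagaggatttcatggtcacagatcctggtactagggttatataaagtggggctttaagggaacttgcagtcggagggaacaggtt
Trem2 promoter, chr17:48346151-48346450 (+): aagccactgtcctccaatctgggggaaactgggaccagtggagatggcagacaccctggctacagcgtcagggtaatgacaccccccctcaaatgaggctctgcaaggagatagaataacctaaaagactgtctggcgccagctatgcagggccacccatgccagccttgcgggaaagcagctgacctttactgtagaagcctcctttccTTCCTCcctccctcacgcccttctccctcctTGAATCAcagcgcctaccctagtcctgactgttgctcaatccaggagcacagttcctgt
In the Gpnmb window the capitals are TGACTCA, 8 bases after the start site. In the Itgax window they are TGAGTCA, at -56 from it. In the Mmp12 window TGAGTCA lies at -44, after CACATGA at -83, which is TCATGTG on the other strand. In the Trem2 window TGAATCA lies at -9 and TTCCTC, which is GAGGAA on the other strand, at -40. The middle base of TGAATCA is A, where the other AP-1 matches have C or G, so it counts only because N allowed any base. The windows of Cd9, Lgals3 and Pla2g7 held none of the letters searched, although Lgals3 and Pla2g7 were also highest on WT HCD array 1.

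No marker differed between the genotypes past the threshold on either diet. On HCD the Lats2-CKO minus WT difference was -1.11 ± 0.30 for Pla2g7, -2.01 ± 1.48 for Gpnmb, -0.83 ± 0.55 for Trem2 and -0.54 ± 0.33 for Lgals3, and 0.01 ± 0.14 for Cd9 (SE, 3 against 3 arrays). All 8 had a limma adjusted p of 0.99999, 0% of all genes passed there, and 1 of the 8 had an unadjusted p below 0.05 (2.93% of all genes). Pla2g7 was that one, and it alone was lower without overlap in Lats2-CKO HCD livers, at 5.58 to 5.59, against 6.05 to 7.05 in WT HCD livers (3.37% of all genes were lower and 4.07% higher without overlap). Of the 8 markers 1 had a difference above 0, where 52% of all genes did. Without WT HCD array 1 the Trem2 difference was -0.01 ± 0.28, that of Gpnmb -0.25 ± 1.20 and that of Lgals3 -0.13 ± 0.26, whereas that of Pla2g7 was -0.93 ± 0.33, still lower without overlap (7.96% of all genes, and 11.1% higher). Other marker lists were lower on HCD as well. General macrophage markers, among them the TREM2 adaptor gene Tyrobp, were lower in 19 of 19 (7 at an unadjusted p below 0.05, 1 without overlap, median -0.73). Liver endothelial markers were lower in 11 of 12 (11 at an unadjusted p below 0.05, 8 without overlap, median -0.51). Without WT HCD array 1 the median was -0.49 for the general macrophage and -0.49 for the endothelial list. By limma 0 of either list passed, and their part in the marker values was not tested.

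On ND the Lats2-CKO livers were lower in 7 of the 8 fitted values, where 50% of all genes had values above 0. Cd9 was at -0.46 ± 0.14 and Pla2g7 at -0.71 ± 0.30 (SE, limma adjusted p = 0.312 and 0.514), the 2 markers with an unadjusted p below 0.05 (8.99% of all genes). Cd9 read 5.72 to 5.87 in Lats2-CKO ND livers, against 6.12 to 6.48 in WT ND livers, and Itgax also did not overlap, among values of which 5 of 6 were dim (7.36% of all genes were lower and 5.96% higher without overlap). Without WT ND array 3 these stayed the 2 markers apart (14.8% of all genes lower and 11.5% higher). Gpnmb was at -1.43 ± 1.48, and at -0.0002 ± 1.40 without WT ND array 3. Without that array Trem2 and Mmp12 were at 0.031 and 0.058, against -0.24 and -0.34 with it, and Fabp5 was at 0.17, against 0.29. By limma, 0 of the 8 passed on ND, where 0.0135% of all genes did. Other marker lists were lower alongside in Lats2-CKO ND livers. Without overlap, 8 of 12 liver endothelial markers (median -0.56), 11 of 19 general macrophage markers (median -0.52) and 7 of 15 resident Kupffer cell markers (median -0.50) were lower. By limma 0 of each list passed, with 9, 5 and 8 at an unadjusted p below 0.05, and their part in the marker values was not tested.

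The test of whether the diet response differed between the genotypes called 0 of the 8 markers, and 0.00451% of all genes. The difference of the diet changes (Lats2-CKO minus WT) was 0.47 ± 0.20 for Cd9 (limma adjusted p = 0.888), the 1 marker with an unadjusted p below 0.05 (5.62% of all genes) and the 1 with a value above 0 (50.8% of all genes). For Trem2 it was -0.59 ± 0.78, for Gpnmb -0.59 ± 2.09 and for Fabp5 -0.70 ± 0.41. The first 2 changed sign without WT HCD array 1, to 0.23 ± 0.38 and 1.17 ± 1.62, and that of Gpnmb was -2.01 ± 1.88 without WT ND array 3. The larger count of separated markers in Lats2-CKO is therefore not shown to be a difference in response.

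Genes around the markers were followed through lists, whose counts for diet over both genotypes are to be read against 1.24% of all genes past the threshold and 18% at an unadjusted p below 0.05. Those past the threshold were 7.24% of all genes without WT ND array 3 and 0.618% without WT HCD array 1. Among 19 general macrophage and myeloid markers, 3 rose over both genotypes and 0 fell, and all 19 had fitted values above 0, where 44.7% of all genes had. Those that rose were Ly86 (1.71 ± 0.22), the pore-forming protein gene Mpeg1 (1.25 ± 0.24) and the complement gene C1qb (1.08 ± 0.22), at limma adjusted p of 0.0192 to 0.0461. The 8 lipid-associated markers had a median of 0.64 and that list a median of 1.0025, or 0.39 and 0.82 without WT HCD array 1. The 15 resident Kupffer cell markers were mixed, with 10 of 15 fitted values above 0 over both genotypes. In Lats2-CKO 6 of them were higher and 3 lower on HCD without overlap (8.98% and 10.5% of all genes). Over both genotypes 3 rose past the threshold and 0 fell. They were the lectin gene Clec4f (0.53 ± 0.09), the scavenger protein gene Cd5l (1.78 ± 0.32) and the iron exporter gene Slc40a1 (1.59 ± 0.29), at limma adjusted p of 0.0327 to 0.0385. The counts past the threshold in the general macrophage and the Kupffer list were 2 and 2 without WT HCD array 1, and 6 and 5 without WT ND array 3.

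The 2 WT HCD arrays with the highest general macrophage means differed in the means of other lists. The centred mean of the general macrophage list was 1.11 on WT HCD array 1, 1.39 on array 2 and 0.03 on array 3. That of the resident Kupffer cell list was 0.16, 1.10 and -0.02 on the same arrays, and that of the 8 lipid-associated markers 1.92, -0.03 and 0.19. On WT ND array 3, the lipid-associated mean was 0.42, the general macrophage mean -0.28 and the Kupffer mean -0.28. Other lists were also highest of the 12 arrays on WT HCD array 1: lysosomal and lipid handling genes (0.80), monocyte recruitment (0.64), stellate cell (0.42) and T and NK cell markers (0.32). Highest on WT HCD array 2 were also TREM2 receptor signalling (0.91), platelet (0.90), B and plasma cell (0.85) and dendritic cell markers (0.51), and the transcription factor list (0.32). The Kupffer genes did not all differ alike between WT HCD arrays 1 and 2. Clec4f read 8.24 and 8.41, Cd5l 10.75 and 11.64, and Slc40a1 9.51 and 11.11. These are values of single livers, and which kind of macrophage they held was not tested. By Dixon's ratio of gap to range, 1 of the 6 HCD arrays stood apart for 4 of the 8 markers (9.25% of all genes) and 1 of the 6 ND arrays for 2 of the 8 (7.39% of all genes).

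**Figure D4:**
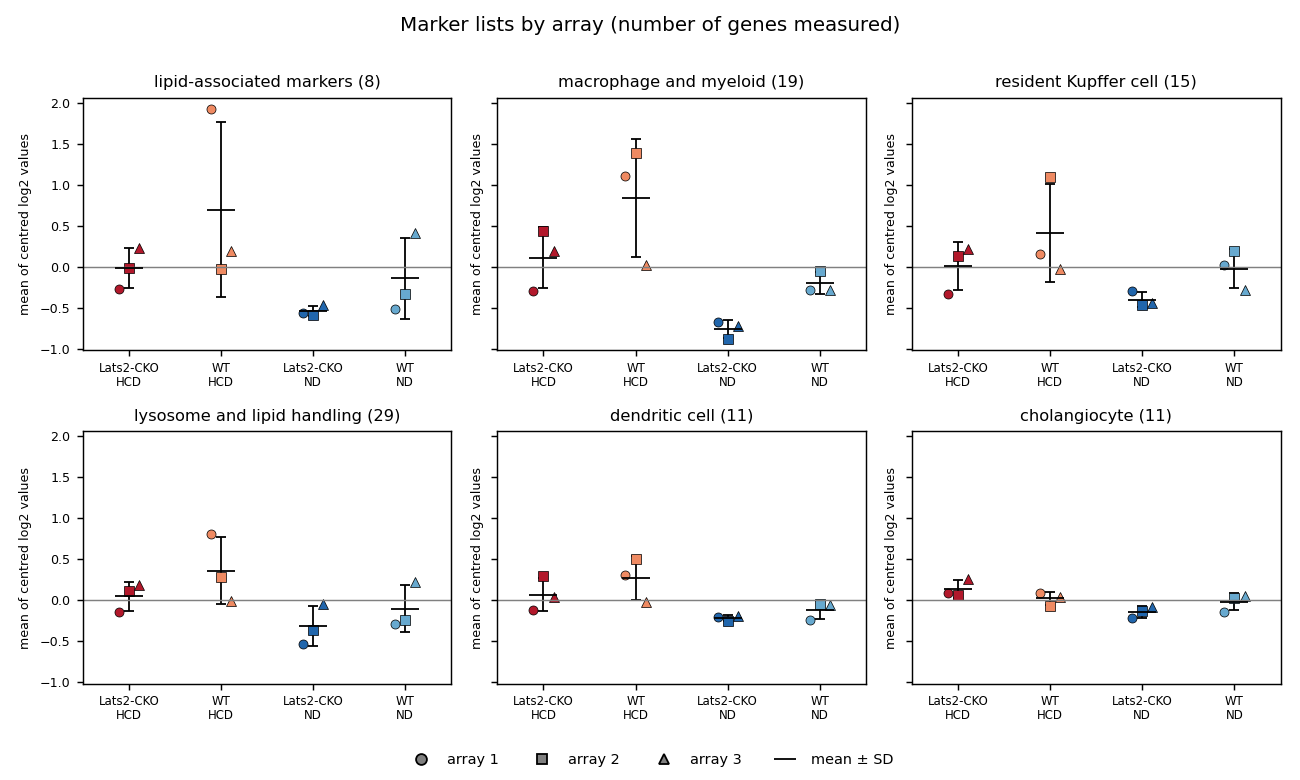
Mean of the centred log2 values of the genes in each list (vertical axis) on each of 12 arrays, by genotype and diet (horizontal axis), with the group mean ± SD (n = 3). WT HCD array 1 is highest for the lipid-associated markers (1.92) and WT HCD array 2 for the general macrophage (1.39) and resident Kupffer cell lists (1.10).

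Of 18 genes of TREM2 receptor signalling, 0 passed for diet over both genotypes by limma, and 11 had an unadjusted p below 0.05. The median was 0.42, with 15 of 18 above 0. Tyrobp, the TREM2 adaptor, was at 0.84 ± 0.26 and the kinase gene Btk at 0.64 ± 0.19 (SE, limma adjusted p = 0.131 and 0.115). Tyrobp read 7.59 to 8.26 in Lats2-CKO HCD livers, against 6.77 to 7.60 in Lats2-CKO ND livers. It read 9.55, 8.71 and 7.79 on the WT HCD arrays, against 7.73 to 7.89 on the WT ND arrays, so that it was high on WT HCD array 2 as well, where Trem2 was not.

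Of 29 lysosomal and lipid handling genes, 2 rose over both genotypes and 0 fell, with a median of 0.31. They were Ctss, a lysosomal cysteine protease of antigen-presenting cells, at 1.41 ± 0.28, and Gm2a, the activator of ganglioside breakdown, at 0.55 ± 0.10 (SE, limma adjusted p = 0.0432 and 0.0380). Without WT ND array 3 the count was 8, and without WT HCD array 1 it was 0. Of 16 genes of monocyte recruitment 2 rose and 0 fell: the chemokine Ccl5 at 1.56 ± 0.25 and the fractalkine receptor Cx3cr1 at 0.49 ± 0.10 (limma adjusted p = 0.0301 and 0.0484), and the list count was 1 without WT HCD array 1. Of 16 transcription factors of the MITF and TFEB family, the LXR and PPAR receptors and the PU.1 group, 0 passed by limma, with 5 at an unadjusted p below 0.05. Spi1, which encodes PU.1, was at 0.68 ± 0.19 and Tfe3 at -0.42 ± 0.12 (limma adjusted p = 0.107 and 0.106).

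Some of these markers are also made by other cells, whose own markers were therefore read on the same arrays, and their part in the results was not tested. Of 11 dendritic cell markers, which bear on Itgax, 0 passed over both genotypes, 5 had an unadjusted p below 0.05 and the median was 0.32. Their centred mean ran from -0.12 to 0.29 on the Lats2-CKO HCD, -0.02 to 0.51 on the WT HCD, -0.26 to -0.19 on the Lats2-CKO ND and -0.25 to -0.05 on the WT ND arrays. Of 7 platelet markers, which bear on Cd9, 0 passed, 2 had an unadjusted p below 0.05 and the mean was 0.90 on WT HCD array 2, against -0.23 to 0.12 on the other 11 arrays. Of 11 cholangiocyte markers 0 passed, with 2 at an unadjusted p below 0.05 and a median of 0.12. Neutrophil (12 measured), stellate cell (14), and T and NK cell markers (10) had medians of -0.02, 0.01 and 0.08 with 0 calls by limma, and 1, 4 and 1 genes at an unadjusted p below 0.05.

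In the remaining lists 3 genes fell and 0 rose. Among 12 endothelial markers the angiopoietin receptor gene Tek fell by 0.42, and among 11 B and plasma cell markers Derl3, which belongs to the protein degradation machinery of the endoplasmic reticulum, fell by 3.24. Derl3 ran against its list, in which 8 of 11 had fitted values above 0 (median 0.32). It read 4.05 on WT ND array 3, against 6.90 to 8.58 on the other ND arrays and 3.57 to 3.96 on the HCD arrays. Among 7 adipose markers the lipid droplet gene Cidec fell by 2.99 (limma adjusted p = 0.0369, 0.0389 and 0.0192). Without WT HCD array 1 the counts of the endothelial and the B and plasma cell list were 0, and that of the adipose list 1. The 11 hepatocyte markers had a median of 0.01, with 0 calls by limma and 1 gene at an unadjusted p below 0.05. A gene can stand in 2 lists, as Tyrobp, Cd68, Csf1r, Nr1h3, Batf3, Fabp4, Pparg and Cdh5 do.

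Across the 12 arrays, the genes outside the 8 whose values followed the mean of the centred markers most closely were H2-M2, Elovl7, Rragd, Rnase1 and Atp6v0d2, at Pearson r of 0.94, 0.93, 0.92, 0.92 and 0.92. Those that followed Trem2 most closely were Snhg18, H2-M2, Atp6v0d2, Myo5a and Tbx20, at r of 0.96, 0.95, 0.95, 0.94 and 0.94. H2-M2, a non-classical MHC class I gene, read 7.92 on WT HCD array 1, 4.55 on WT ND array 3 and 2.77 to 3.88 on the other 10 arrays. Atp6v0d2, a subunit of the proton pump of lysosomes in osteoclasts and macrophages, read 6.49 on WT HCD array 1 and 2.92 to 3.96 on the others. Without WT HCD array 1 the r of the first 5 genes was 0.58 to 0.79 and of the last 5 genes 0.48 to 0.77, so the likeness rests largely on that array. These r describe 12 arrays that share groups and are given without a test.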

How the data were processed

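The authors deposited log2 expression per probe set. The submitters' processing notes name Partek 6.6 and RMA, and the log2 scale was read from the range of values (1.94 to 14.16). RMA settings, genome build and filters are not given in the sources used here. The number of arrays limits the precision, and depth does not apply. Of 41345 probe sets, 23521 had 1 gene symbol, 1814 several and 16010 none. Symbols of 23328 were updated by gene identifier against RefSeq genes of GRCm38.p6. The probe set with the highest mean stood for a gene, which left 22180 genes. These were tested in R 4.3.3 with limma 3.58.1, 1 fit of 4 group means over 12 arrays, with Benjamini-Hochberg adjustment over all genes at a threshold of 0.05. Two-sided p-values and SE come from that fit, which was tested on simulated data.

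Nothing in the labels says that replicate numbers pair the arrays, and the main fit did not pair them. Same-numbered arrays' deviations from group means correlated at 0.002 to 0.18. Differently numbered arrays were not compared, so these values cannot exclude pairing. The numbers also went with the array sets. All replicate 1 arrays were in the set with higher medians and all replicate 3 arrays in the lower one. The text names the markers, Lats2, list genes past the threshold (at most 3) or else the 2 with the smallest p for diet over both genotypes, and the 5 genes most alike. Members, lists and rules were chosen with earlier results of these data known. Alternatives were a fit on the groups compared, replicate and array set blocks, another prior, dim genes left out, other uses of probe sets, other normalisation and each array left out. Leaving out WT ND array 3 and WT HCD array 1 together was added after seeing the data.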

Additional observations from a re-analysis of the deposited data

Results flagged for a closer look

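The highest and the lowest of the 6 HCD arrays and of the 6 ND arrays were compared with their nearest neighbour by Dixon's ratio of gap to range (critical value 0.625 for 6 arrays), for 16 sets in all, and chance alone sets an array apart in about 1 of 20. Each set pools both genotypes, since groups of 3 arrays cannot be tested this way. WT HCD array 1 was far above the other HCD arrays for Trem2 (5.82, next 3.74), Gpnmb (10.02, next 5.93), Itgax (4.50, next 3.44) and Mmp12 (7.20, next 4.82), which is 4 of the 8 markers, where 9.25% of all genes had an array set apart. WT ND array 3 was far above the other ND arrays for Gpnmb (7.28, next 3.29) and Mmp12 (4.95, next 3.85), 2 of the 8, against 7.39% of all genes.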

How the results depend on the processing

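Of 576 values of single markers with 1 array left out, 547 kept direction and side of the threshold, as did 495 of 512 under the other alternatives. These counts are no measure of stability. An array outside the groups compared cannot change a difference, only its SE, and nearly all values were not called to begin with. The only called value, Pla2g7 over both genotypes, lost its call on leaving out any of 6 single arrays. Genes past the threshold numbered 0 to 516 in WT, 5 to 468 in Lats2-CKO, 6 to 1605 over both genotypes, 3 to 17 for genotype on ND, 0 to 22 on HCD and 1 to 2 for the interaction when 1 array was left out, and markers 0 to 1, 0 to 1 and 0 to 2 in the first 3. WT ND array 3 gave the upper end of the diet counts. With the array set block, genes were 33 in Lats2-CKO, 43 over both genotypes (0 markers), 11 for genotype on ND and 2 for the interaction. With the block and without WT ND array 3 they were 374 in WT, 573, 1229 and 6. With a trended robust prior they were 98 in Lats2-CKO, 5 on ND and 2 for the interaction, without dim genes 109, 421 over both genotypes and 3 for the interaction. Without WT ND array 3 and WT HCD array 1 they were 396 in WT, 540 in Lats2-CKO (1 marker, Cd9), 1646 over both (3 markers: Pla2g7, Cd9 and Fabp5) and 6 on ND. Fitting only the groups compared gave 265 in Lats2-CKO (2 markers, Mmp12 and Pla2g7) and 1 on ND. The cause was not tested. The replicate block changed no call of a marker (311 genes over both genotypes, against 274).

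No reversal touched a called value. With 1 array left out, ranges crossing 0 were, for diet in WT, -0.10 to 1.15 (Trem2) and -0.043 to 1.84 (Mmp12), and in Lats2-CKO -0.062 to 0.30 (Trem2). For genotype on ND they were -0.41 to 0.031 (Trem2) and -0.56 to 0.058 (Mmp12), and on HCD -0.12 to 0.13 (Cd9), -0.61 to 0.21 (Itgax) and -1.36 to 0.52 (Mmp12). For the interaction they were -1.02 to 0.23 (Trem2), -2.01 to 1.17 (Gpnmb), -0.74 to 0.0013 (Lgals3), -0.45 to 0.37 (Itgax) and -1.03 to 0.86 (Mmp12). With the array set block and without WT ND array 3, genotype on ND was 0.21 (Trem2), 0.54 (Gpnmb), 0.049 (Itgax) and 0.43 (Mmp12). Without WT ND array 3 and WT HCD array 1, genotype on ND was 0.031 (Trem2) and 0.058 (Mmp12), on HCD 0.21 (Itgax) and 0.52 (Mmp12), and the interaction 0.32 (Itgax) and 0.47 (Mmp12). With the mean of probe sets, Cd9 on HCD was -0.10.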
